A study of Homo sapiens with 12 samples.

Results

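STARD4, NPC1, NPC2, MYLIP, SCARB1, LRP8 and VLDLR act in lipoprotein uptake, its control, or the movement of cholesterol within the cell. Binding of SREBP2 and RORγ and acetylation of H3K27 were described at these 7 genes, of 20098 protein-coding genes in all. The genes were chosen by name. A region, meaning a stretch that the peak caller reported in a library, counted as a promoter region when it overlapped the stretch between 1 kb before and 100 bp after an annotated start of any of the gene's transcripts. Every region from 10 kb upstream to 10 kb downstream of a gene was also taken, and this stretch is called its locus.

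The data came from HCC70, an established human cell line of triple-negative breast cancer, a class of tumors without the hormone receptors and HER2 amplification that guide therapy. Cells were grown in serum-containing medium and given vehicle or XY018, a small-molecule antagonist of RORγ, for 24 h. The labels give 5 µM XY018, and the study's methods state a lower dose. Chromatin was precipitated with antibodies to SREBP2, to RORγ (a rabbit serum raised against a fragment of the human protein) or to acetylated H3K27, with 1 vehicle and 1 XY018 library for each. All groups therefore share 1 cell line and 1 time point, and no group has a replicate.

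Low-density and related lipoproteins enter cells through receptors of a family that includes VLDLR and LRP8, whereas SCARB1 takes cholesteryl ester from high-density lipoprotein without engulfing the particle. MYLIP, also known as IDOL, is a ubiquitin ligase that sends such receptors to degradation. In the lysosome NPC2 hands the freed cholesterol to NPC1 for export, and STARD4 carries cholesterol through the cytosol between membranes. SREBP2 is the sterol-sensing transcription factor that drives cholesterol synthesis and uptake genes, RORγ is a nuclear receptor, and H3K27ac marks active promoters and enhancers.

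The lists held 69700 to 167264 regions on chromosomes 1 to 22 and X. The sequencing depth recovered from the lists was 3.65 to 6.16 tags per kb, and the XY018 library had 0.904 to 1.07 times the depth of the vehicle library of its antibody. The average number of fragments expected at any position, called the background here, was 1.03 in the vehicle and 1.21 in the XY018 library of SREBP2. It was 0.787 and 0.712 for RORγ, and 1.17 and 1.07 for H3K27ac. Levels below are fragments at the summit of a region, and the level divided by this background is what was compared between libraries. Acetylated regions lay at the main start of 4 of 7 epithelial genes with vehicle, EPCAM, CDH1, KRT8 and KRT18 but not KRT5, KRT14 or KRT17. None lay at the starts of the hormone receptor genes ESR1 and PGR or of the white blood cell genes PTPRC and CD3E. SREBF2, the gene of SREBP2, carried an acetylated region with 239 fragments. Intervals throughout are exact 95% intervals that cover counting error only, and 1 library per group allows no test between conditions. They treat the fragments at a summit as a plain count. The choice of the summit in each library and of the strongest regions is left out of them. In a bulk library, fewer cells with a bound site and less binding per cell cannot be told apart. With 1 library per group, neither can a difference in binding and a difference in enrichment between the libraries.

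Sequences under the strongest SREBP2 promoter summit of 5 genes are shown, those of the highest levels (VLDLR and LRP8), the lowest level (STARD4), and the smallest and largest changes at a main start (MYLIP and NPC1). The NPC1 and STARD4 windows are shortened to leave out untranslated bases, whereas the motif counts below used the whole stretch around each summit. They were taken from GRCh37, which is hg19, and are read 5′ to 3′ on the strand of the gene, and the 21 bases centred on the summit of the vehicle library are in capitals. The VLDLR window, chr9:2622706-2622906 on the plus strand, has its summit in an intron close to the start. The LRP8 window, chr1:53742350-53742550 on the minus strand, begins in an internal coding exon. The NPC1 window, chr18:21166159-21166307 on the minus strand, starts at the ATG and runs through the end of the coding part of the exon into the intron. The MYLIP window, chr6:16129765-16129965 on the plus strand, and the STARD4 window, chr5:110847962-110848082 on the minus strand, have their summits in introns close to the start.
VLDLR: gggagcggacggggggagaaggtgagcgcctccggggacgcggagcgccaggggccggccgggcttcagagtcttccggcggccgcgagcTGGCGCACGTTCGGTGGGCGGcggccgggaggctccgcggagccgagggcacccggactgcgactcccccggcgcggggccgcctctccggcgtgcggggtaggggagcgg
LRP8: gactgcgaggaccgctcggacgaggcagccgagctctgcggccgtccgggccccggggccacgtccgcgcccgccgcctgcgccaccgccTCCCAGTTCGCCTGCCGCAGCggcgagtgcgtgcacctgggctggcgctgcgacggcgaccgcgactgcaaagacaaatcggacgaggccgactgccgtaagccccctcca
NPC1: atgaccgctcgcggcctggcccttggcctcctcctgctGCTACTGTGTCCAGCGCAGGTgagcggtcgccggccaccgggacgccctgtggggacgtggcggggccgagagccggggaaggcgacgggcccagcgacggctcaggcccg
MYLIP: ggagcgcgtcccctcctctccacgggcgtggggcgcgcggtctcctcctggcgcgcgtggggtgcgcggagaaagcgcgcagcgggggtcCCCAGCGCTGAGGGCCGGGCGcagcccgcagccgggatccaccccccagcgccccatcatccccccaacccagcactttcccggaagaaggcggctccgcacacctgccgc
STARD4: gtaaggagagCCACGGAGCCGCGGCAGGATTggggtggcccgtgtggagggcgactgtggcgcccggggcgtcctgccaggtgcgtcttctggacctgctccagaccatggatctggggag

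All 7 genes had an SREBP2 region at a promoter with vehicle and again with XY018, and all 7 had an acetylated region in both. A RORγ region was present at 6 of the 7 in both libraries, and the gene without it was STARD4. Such regions were common genome-wide. Promoter regions of SREBP2 were listed for 70.6% of all protein-coding genes in the vehicle library and for 62.7% in the XY018 library. For RORγ these shares were 62.6% and 61.5%, and for H3K27ac 66.8% and 68.0%. Counted only at the MANE Select start, the reference transcript of each gene, the 7 genes gave the same counts. The genome-wide shares at that start were 65.3% and 56.9% for SREBP2, 54.7% and 53.3% for RORγ, and 63.5% and 65.0% for H3K27ac. With so many promoters in each list, presence at 6 or 7 of 7 genes does not set the group apart. Among 35 other genes of lipoprotein uptake and cholesterol transport, SREBP2 was at the promoters of 32 in the vehicle list and of 28 in the XY018 list. The counts were 26 and 28 for RORγ and 31 and 32 for H3K27ac. Among 21 cholesterol biosynthesis genes the counts were 18 and 17 for SREBP2, 16 and 13 for RORγ, and 20 and 20 for H3K27ac.

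**Figure D1:**
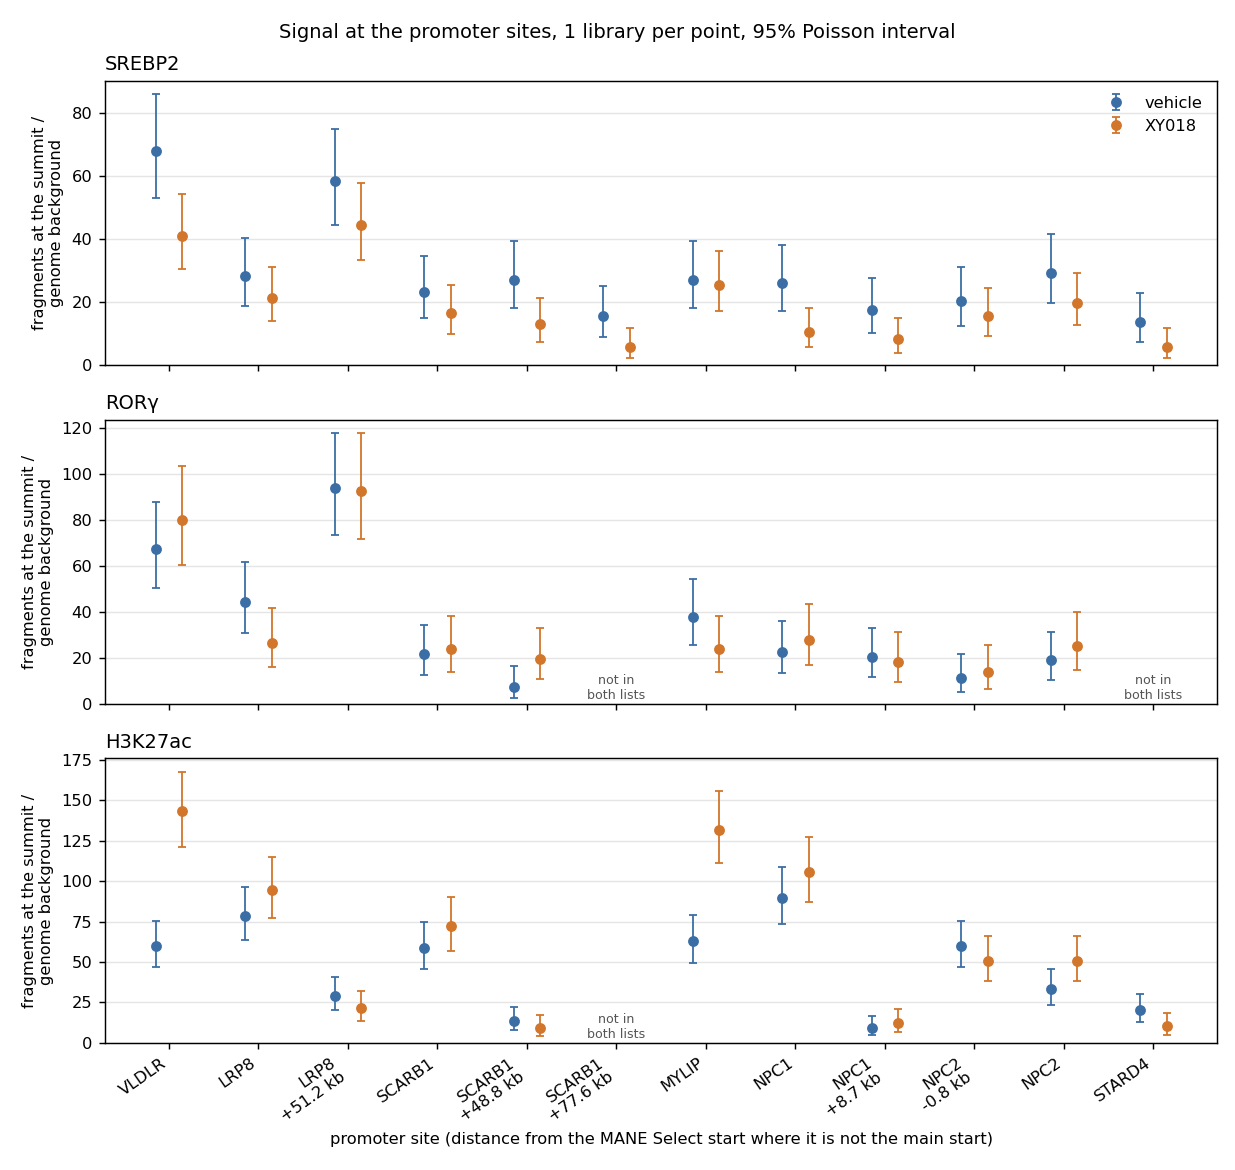
Fragments at the summit divided by the background of the library (y axis, linear) at the 12 promoter sites with SREBP2 in both libraries (x axis), 1 panel for each antibody, vehicle in blue and XY018 in orange, with exact 95% Poisson intervals. VLDLR and the internal LRP8 site stand highest for both factors, and H3K27ac at VLDLR and MYLIP is the only mark whose vehicle and XY018 intervals are separate.

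VLDLR, the receptor for triglyceride-rich lipoproteins, had the highest SREBP2 level of the group. Its region at chr9:2622019-2623059 peaked 1019 bp past the start with 70 fragments with vehicle (interval 54.6 to 88.4) and 50 with XY018 (37.1 to 65.9). The XY018 level over background was 0.60 of the vehicle level (0.41 to 0.88). An adjoining region with its summit 54 bp before the start held 50 fragments with vehicle and 41 with XY018, a ratio of 0.69 (0.45 to 1.07). So SREBP2 was lower with XY018 at both summits, and the interval excluded 1 at the stronger of them. Among the 12337 genes with overlapping SREBP2 promoter regions in both libraries, 96.9% had fewer vehicle fragments than VLDLR. RORγ peaked within 23 bp of the SREBP2 summit, with 53 fragments with vehicle and 57 with XY018 (ratio 1.19, interval 0.80 to 1.76). H3K27ac at the start held 70 fragments with vehicle and 153 with XY018, a ratio of 2.39 (1.79 to 3.22). This was the largest acetylation ratio of the 7 genes, and 99.2% of all paired promoters had a lower one. Acetylation was thus higher with XY018 at the same promoter where SREBP2 was lower. Each direction was the common one, since 98.0% of paired genes were lower for SREBP2 and 80.4% higher for H3K27ac. The acetylation summits, 42 bp (vehicle) and 83 bp (XY018) before the start, lay near the SREBP2 summit whose interval included 1.

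LRP8, a receptor of the same family known for reelin signalling in the brain, had its strongest SREBP2 region not at the main start but 51.2 kb into the gene. This site, chr1:53742018-53742960, covers an internal coding exon next to annotated starts of shorter transcripts, and its summit sequence is the LRP8 window printed above. Its SREBP2 level was 60 fragments with vehicle (45.8 to 77.2) and 54 with XY018 (40.6 to 70.5), a ratio of 0.76 (0.52 to 1.12). RORγ held 74 and 66 fragments there, the highest RORγ level in the 7 loci (ratio 0.99, 0.70 to 1.39). H3K27ac was modest, with 34 fragments with vehicle and 23 with XY018. The main LRP8 start carried the reverse arrangement, with high acetylation and lower factor levels. H3K27ac was 78.6 times background with vehicle and 94.6 times with XY018 (ratio 1.20, 0.90 to 1.61). SREBP2 held 29 and 26 fragments, but the summits differ, since the vehicle summit was 366 bp past the start and the XY018 summit 742 bp before it. RORγ held 35 fragments with vehicle and 19 with XY018 in the regions over the start (ratio 0.60, 0.32 to 1.08), and 12 and 19 in the regions 0.8 kb upstream. The RORγ ratio of LRP8 therefore depends on which site is read, and none of these intervals excluded 1.

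SCARB1, the high-density lipoprotein receptor SR-BI, had SREBP2 at its main start with 24 fragments in the vehicle and 20 in the XY018 library (ratio 0.71, 0.37 to 1.33). Lower ratios came from its internal starts. At 48.8 kb into the gene SREBP2 held 28 fragments with vehicle and 16 with XY018 (0.48, 0.24 to 0.93), and at 77.6 kb 16 and 7 (0.37, 0.13 to 0.95). The site at 85.4 kb, at the 3′ end of the gene, held 22 and 14 fragments (0.54, 0.25 to 1.10). RORγ went the other way at the 48.8 kb site, with 6 fragments with vehicle and 14 with XY018, although the interval of the ratio was wide (2.58, 0.93 to 8.19). At 77.6 kb a RORγ region of 13 fragments was listed with XY018 only. The main start was level for RORγ, at 17 fragments in each library. H3K27ac at the main start held 69 fragments with vehicle and 77 with XY018 (1.22, 0.87 to 1.72), against 16 and 10 at the 48.8 kb site.

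MYLIP, the ligase that removes receptors, was the gene whose SREBP2 level moved least. Its single promoter region, chr6:16128977-16130195 with vehicle, held 28 fragments (18.6 to 40.5), and its XY018 counterpart held 31 (21.1 to 44.0). Over background the ratio was 0.94 (0.54 to 1.62), and 96.4% of all paired promoters had a lower SREBP2 ratio. Scaled by tags per kb instead, it was 1.04. RORγ at MYLIP held 30 fragments with vehicle and 17 with XY018 (0.63, 0.32 to 1.17), the lowest RORγ ratio of the 6 genes when each was read at its strongest promoter region. The summits of these RORγ regions were 327 bp apart. H3K27ac held 74 fragments with vehicle and 141 with XY018 (2.09, 1.56 to 2.80), and 97.8% of promoters had a lower ratio. VLDLR and MYLIP were the 2 genes of the group whose acetylation interval excluded 1.

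NPC1, the lysosomal membrane protein that exports cholesterol, had the lowest SREBP2 ratio among the main starts. The region at chr18:21166076-21166690 held 27 fragments with vehicle (17.8 to 39.3) and the XY018 region over it 13 (6.92 to 22.2), a ratio of 0.41 (0.19 to 0.82). A further vehicle region 512 bp before the start held 15 fragments, and the XY018 region spans both. At an internal start 8.7 kb downstream SREBP2 held 18 and 10 fragments (0.47, 0.19 to 1.07). RORγ held 18 fragments with vehicle and 20 with XY018 at the main start (1.23, 0.62 to 2.46), and 16 and 13 at the internal start. The deposited RORγ fold enrichment differed much more, 4.46 with vehicle and 12.3 with XY018. The local background that enters the fold was 3.26 fragments with vehicle and 0.712 with XY018. H3K27ac held 105 and 113 fragments at the main start (1.18, 0.90 to 1.55), the highest vehicle level of the group. A site 82.8 kb downstream of the start carried all 3 antibodies but is the promoter of the neighbouring gene RMC1, so its 25 and 19 SREBP2 fragments cannot be assigned to NPC1.

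NPC2, the soluble lysosomal cholesterol carrier, shares its promoter with ISCA2 on the opposite strand, and the signal cannot be divided between the genes. The site over the NPC2 start had 30 fragments of SREBP2 in the vehicle and 24 in the XY018 library (0.68, 0.38 to 1.20). The site 0.8 kb upstream held 21 and 19 (0.77, 0.39 to 1.50). The deposited SREBP2 fold enrichment at the start was 12.2 with vehicle and 4.37 with XY018, a wider gap than in fragments, and the local background was 1.54 with vehicle and 4.72 with XY018. RORγ held 15 and 18 fragments at the start (1.33, 0.63 to 2.83) and 9 and 10 upstream. H3K27ac was 39 with vehicle and 54 with XY018 at the start (1.52, 0.99 to 2.35), and 70 and 54 at the upstream site (0.85, 0.58 to 1.22). The sites on either side of the start thus moved in opposite directions in acetylation, neither beyond its interval.

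STARD4, the cytosolic sterol carrier, stood at the low end for every antibody. Its only SREBP2 region, chr5:110847904-110848502 with vehicle, held 14 fragments (7.65 to 23.5), and with XY018 7 (2.81 to 14.4), a ratio of 0.42 (0.14 to 1.12). Of the 12337 genes with overlapping SREBP2 promoter regions in both libraries, only 4.90% had fewer vehicle fragments. Genes whose vehicle region had no XY018 partner are not in this share. No RORγ region was listed anywhere in the STARD4 locus in either library. Of the 14188 genes with a vehicle SREBP2 promoter region, 118 lacked RORγ throughout their locus in both lists, or 0.832%. The fewest fragments of any region in the RORγ lists was 3, and the weakest vehicle RORγ region in the 7 loci held 4. RORγ signal at STARD4 too weak to be called could not have been seen, and the level needed there is not known. H3K27ac held 24 fragments with vehicle and 11 with XY018 (0.50, 0.22 to 1.06), the lowest ratio among the paired acetylated sites of the 7 loci, and 0.683% of promoters had a lower one. The vehicle SREBP2 region reaches upstream of the annotated starts, into a stretch with CCAAT boxes, the element bound by the factor NF-Y. It is shown from chr5:110848289-110848488 on the minus strand, with the CCAAT boxes in capitals.
STARD4 upstream: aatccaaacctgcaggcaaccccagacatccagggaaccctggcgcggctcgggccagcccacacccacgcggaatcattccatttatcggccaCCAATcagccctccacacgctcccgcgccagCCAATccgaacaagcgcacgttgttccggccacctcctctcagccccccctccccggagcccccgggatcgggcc

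The genes were ordered by SREBP2 level at the promoter pair with the most fragments in both libraries together. VLDLR (70 fragments with vehicle) and LRP8 (60) did not differ beyond counting error. LRP8 was above NPC2 (30), by 2-fold with an interval of 1.27 to 3.21. NPC2, MYLIP (28), SCARB1 (28) and NPC1 (27) could not be separated, and NPC1 over STARD4 (14) gave 1.93-fold with an interval of 0.98 to 3.98. With XY018 the order was LRP8 (54), VLDLR (50), MYLIP (31), NPC2 (24), SCARB1 (16), NPC1 (13) and STARD4 (7). The step from VLDLR to MYLIP was the only one between these neighbours whose interval excluded 1. SCARB1 is given here at its 48.8 kb start, and its main start held more fragments with XY018 (20). RORγ ran from LRP8 (74) and VLDLR (53) down to NPC2 (15) with vehicle, and again only the step below VLDLR exceeded counting error, in both libraries. For H3K27ac the 6 genes from NPC1 (105) to SCARB1 (69) formed a series in which no neighbours could be told apart with vehicle, and STARD4 lay 2.88-fold below SCARB1 (1.78 to 4.78).

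**Figure D2:**
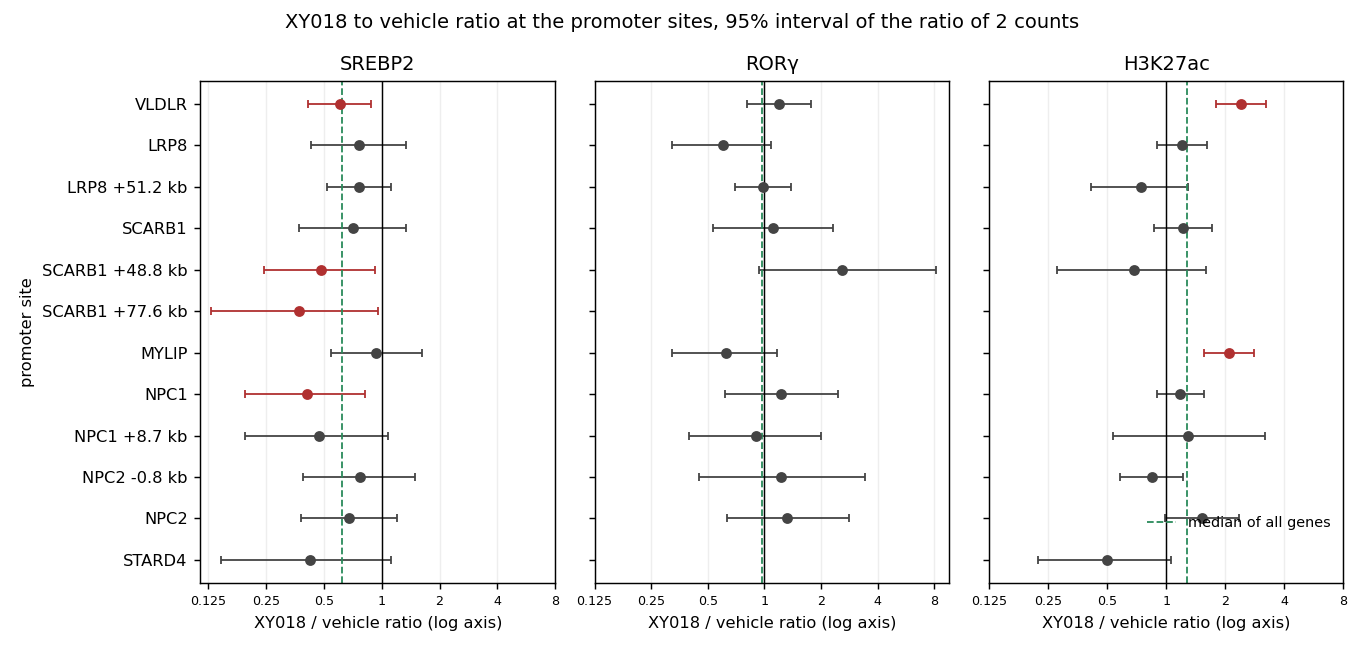
XY018 to vehicle ratio of the level over background (x axis, log scale) at the 12 promoter sites (y axis), with exact 95% intervals. Red points have an interval without 1, the solid line is 1, and the dashed line is the median of all paired genes, 0.62 for SREBP2, 0.97 for RORγ and 1.27 for H3K27ac.

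Read together, SREBP2 over background was lower with XY018 at all 7 genes, with a median ratio of 0.60 and a range of 0.41 to 0.94, and scaled by tags per kb it was lower at 6, with MYLIP at 1.04. This was the direction of nearly every promoter, since 98.0% of 12337 paired genes were lower and their median was 0.62. The interval lay wholly under 1 at NPC1, VLDLR and SCARB1 (its 48.8 kb start), 3 of 7 genes, and at 37.0% of all genes. The SCARB1 main start had as many fragments in both libraries together, a tie that only the order of the list settled. At that main start the ratio was 0.71 (0.37 to 1.33). When the pair with the closest summits was taken, SCARB1 was read there and the median of the 7 genes was 0.68. The fragment length behind the SREBP2 background was 185 bp with vehicle and 205 bp with XY018. Scaled by tags per kb, which leaves this length out, the median was 0.67, the interval of the 48.8 kb SCARB1 site reached 1.03, and that of its 77.6 kb site also included 1. At the main start only, the median of the 7 genes was 0.69 against 0.62 for all genes, and the interval excluded 1 at 1 gene, NPC1. The median was 0.53 over 17 paired biosynthesis genes and 0.67 over 28 paired genes among the other uptake and transport genes. The 7 genes therefore lay within the spread of the whole list, with NPC1 and STARD4 near its lower end and MYLIP near its upper end.

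RORγ showed no shared direction at these promoters. The median ratio over 6 genes was 1.15 against 0.97 over 11311 paired genes, with MYLIP and LRP8 lower and the other 4 higher. Genome-wide, 55.4% of paired genes were lower with XY018. The interval excluded 1 at none of the 6 genes and at 2.78% of all genes. At the main start only, the medians were 1.03 and 0.95.

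Read at the strongest promoter region, H3K27ac was higher with XY018 at 5 of 7 genes, all but NPC2 and STARD4, although NPC2 read at its start was also higher (1.52), while 80.4% of 12881 paired genes were higher. The median was 1.20 for the 7 genes and 1.27 for all. The interval lay wholly over 1 at MYLIP and VLDLR and at 36.1% of all genes. The range over the 7 genes, 0.50 to 2.39, compares with 1.06 to 1.47 between the quartiles of all genes. STARD4 lay below the lower quartile, and MYLIP and VLDLR lay above the upper. NPC2 lay below the lower quartile at its upstream site and above the upper at its start.

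**Figure D3:**
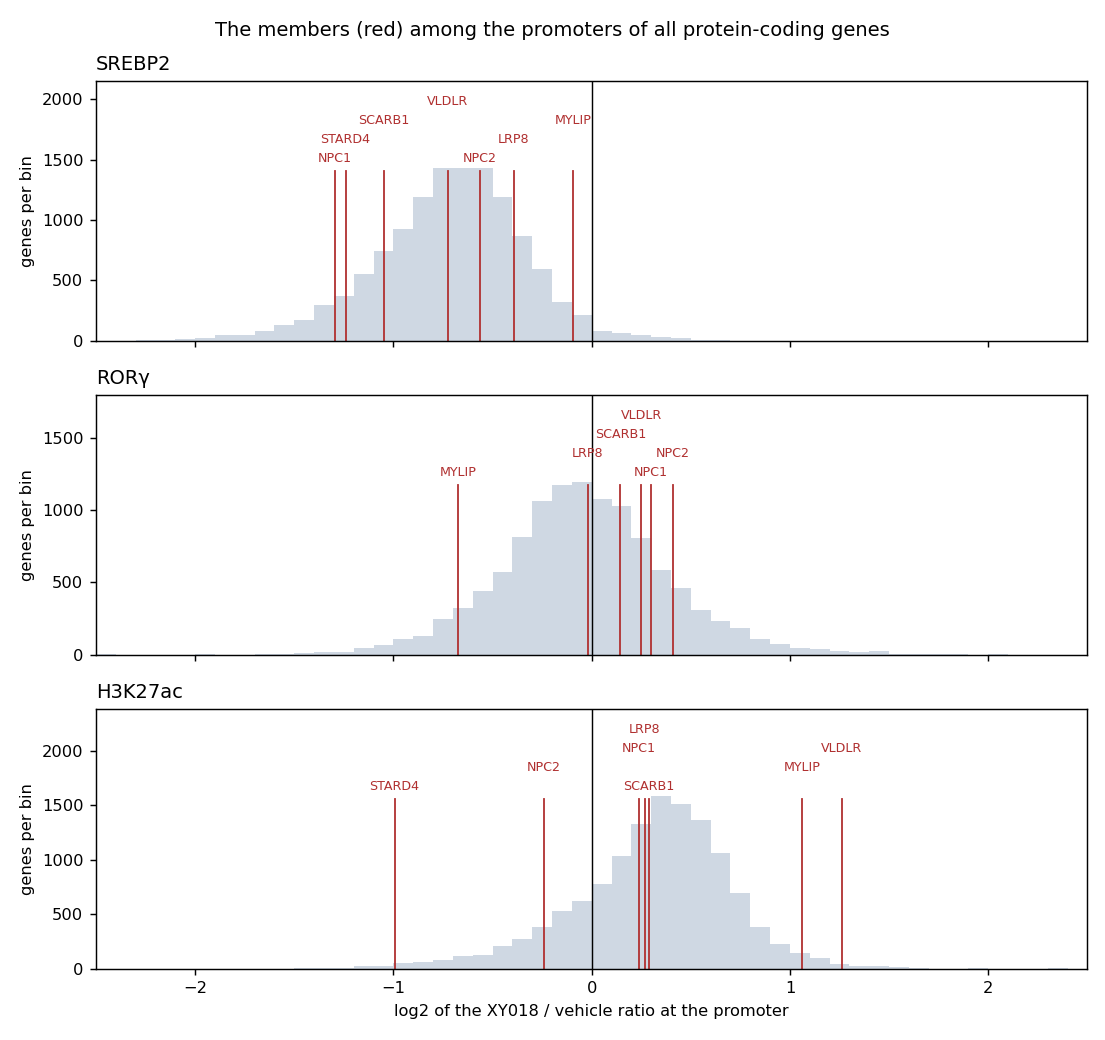
Number of protein-coding genes (y axis) by log2 XY018 to vehicle ratio at the strongest paired promoter region (x axis), 1 panel for each antibody, with the 7 genes as red lines. The genes spread across the SREBP2 histogram, whereas STARD4, MYLIP and VLDLR lie in the tails for H3K27ac.

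Across the 7 loci SREBP2 had 36 regions with vehicle and 24 with XY018, RORγ 28 and 26, and H3K27ac 64 and 66. The XY018 count was 0.67, 0.93 and 1.03 times the vehicle count, against 0.61, 0.80 and 1.10 times over the loci of all genes. The lower number of SREBP2 regions with XY018 was thus not particular to the 7 loci. Overlapping regions of the 6 lists joined into 107 sites, of which 13 were in all lists and 54 in a single list. The genes differed widely in how their sites were spread. STARD4 had 1 site and MYLIP 2, and VLDLR had 6 of which only the promoter site was acetylated. SCARB1 had 22 sites and carried 11 SREBP2 regions with vehicle and 7 with XY018. NPC1 and LRP8 had 33 and 39 sites, mostly weak intronic acetylation, with 26 and 24 H3K27ac regions with vehicle and medians of 11 and 16 fragments. Per 100 kb this was 25.9 and 22.6 acetylated regions, against a median of 4.88 over all protein-coding genes. Of all genes, 86.7% had a lower density than NPC1 and 83.8% a lower density than LRP8. The counts include regions at promoters of the neighbouring genes RMC1 in the NPC1 locus and MAGOH in the LRP8 locus.

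**Figure D4:**
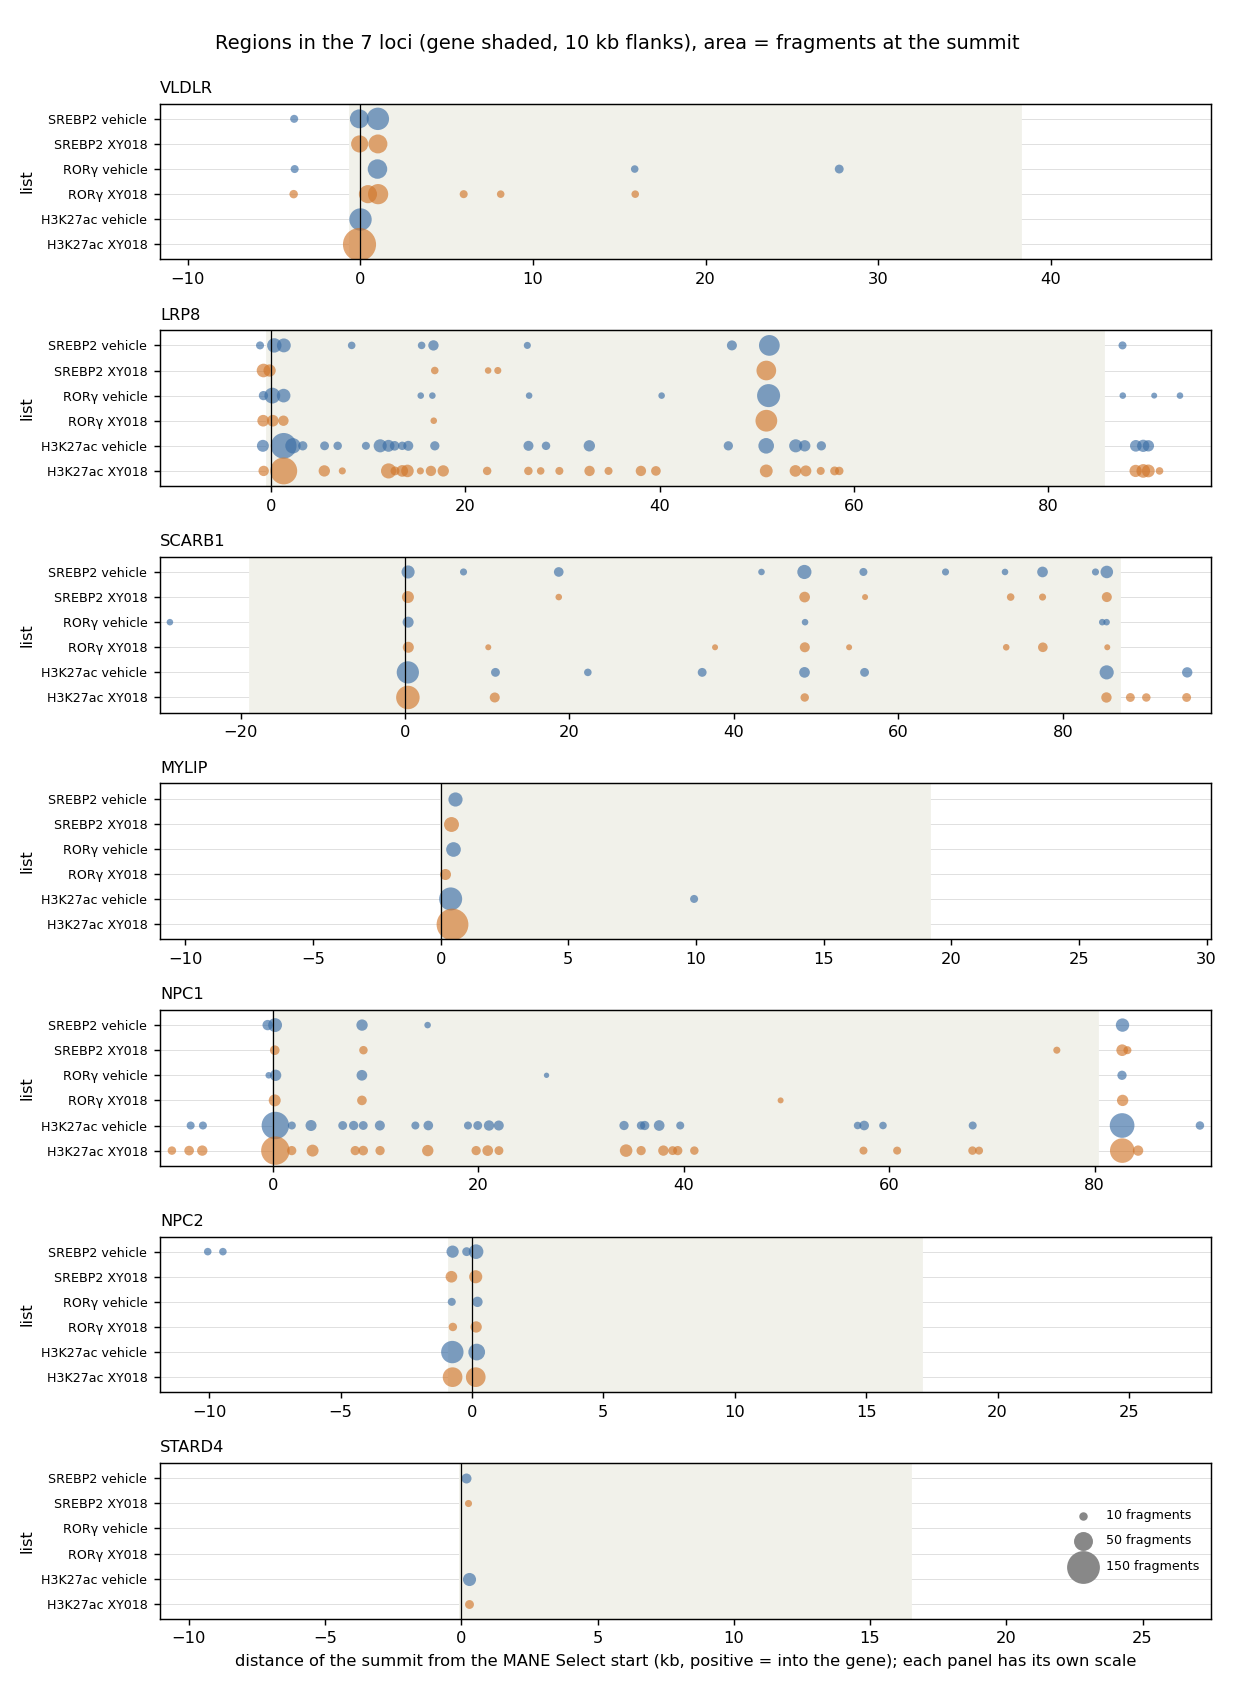
Summits of all regions in the 7 loci by distance from the MANE Select start in kb (x axis, positive into the gene, a scale for each panel) and list (y axis), with vehicle in blue and XY018 in orange and the area of a circle proportional to its fragments. Most large circles lie at the starts, apart from the LRP8 site 51.2 kb and the SCARB1 site 48.8 kb inside the gene and the RMC1 promoter beyond NPC1.

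Of the 36 vehicle SREBP2 regions, 21 overlapped an XY018 SREBP2 region, or 58.3% (40.8 to 74.5), against 44.2% over the loci of all genes. For RORγ 17 of 28 were kept, 60.7% (40.6 to 78.5) against 41.1%, and for H3K27ac 50 of 64, 78.1% (66.0 to 87.5) against 69.8%. Each genome-wide share lay within the interval of the 7 loci. Absent regions were weaker than kept ones in their medians, with ranges that overlapped. The 15 SREBP2 regions absent with XY018 held 6 to 14 fragments with a median of 8, and the 21 kept regions held 9 to 70 with a median of 24. Of the absent regions 1 was at a promoter, a further NPC2 region of 11 fragments within the site over the start, and 15 of the kept ones were. Absent RORγ regions held 4 to 11 fragments against 6 to 74 for kept ones, and absent H3K27ac regions 8 to 12 against 8 to 105. The part of sampling near the limit of detection was not tested. Regions also appeared with XY018 only, 4 of 24 for SREBP2 (16.7%, against 24.0% over the loci of all genes), 8 of 26 for RORγ (30.8% against 47.3%) and 20 of 66 for H3K27ac (30.3% against 36.6%).

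**Figure D5:**
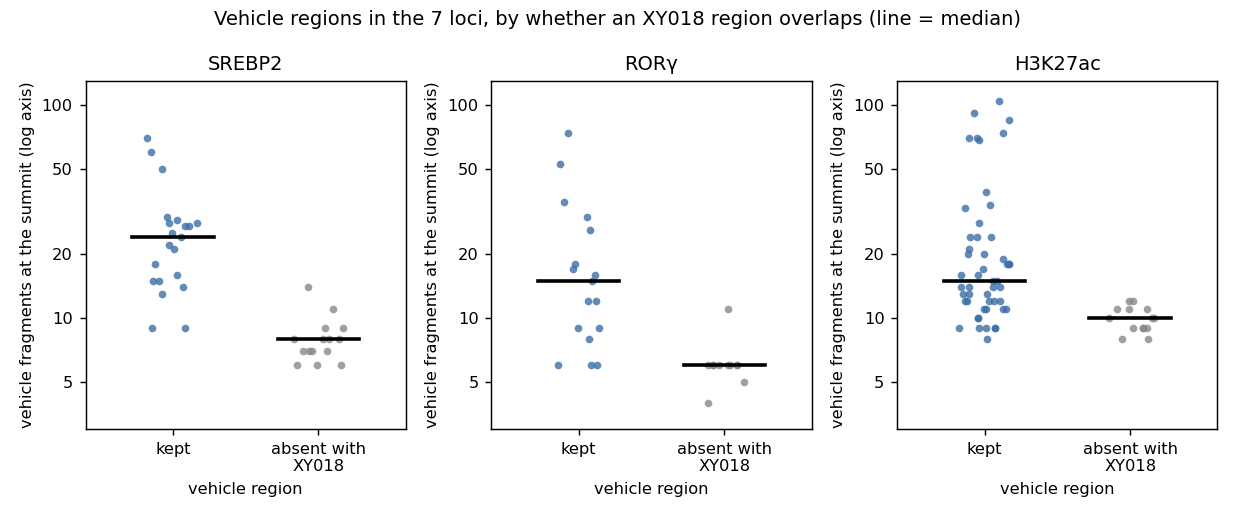
Fragments at the summit of each vehicle region in the 7 loci (y axis, log scale) by whether an XY018 region of the same antibody overlapped it (x axis), with the median as a line. Absent regions lie at the bottom of the range, with medians of 8, 6 and 10 fragments for SREBP2, RORγ and H3K27ac.

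With vehicle 31 of the 107 sites held SREBP2 and 24 held RORγ, and 17 of the 38 sites with either factor held both. With vehicle 21 of 36 SREBP2 regions overlapped a RORγ region, 58.3% (40.8 to 74.5), an interval that contains the 51.2% over all loci. An acetylated region was overlapped by 22 of the 36, 61.1% (43.5 to 76.9), against 33.9% over all loci. Over the loci of the cholesterol biosynthesis genes this share was 57.9% (55 of 95 regions), so it was not particular to the 7 loci. By gene, RORγ overlapped 8 of 10 SREBP2 regions in LRP8 and all 3 in VLDLR, but 3 of 11 in SCARB1. At the 16 sites where regions of both factors overlapped, the distance between the summits had a median of 52.5 bp, and 13 were within 100 bp. These sites include some away from promoters, and each was read at its strongest summits. Over the 13 promoter SREBP2 regions of the 7 genes with RORγ the median was 66 bp and 69.2% were within 100 bp, close to the 62 bp and 63.2% over all 16931 such regions. The closest were 5 bp apart, at the SCARB1 start, and the farthest 205 bp, at the LRP8 start.

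None of the elements searched for the factors was found under these summits. Within 100 bp to either side of the vehicle SREBP2 and RORγ promoter summits of the 7 genes, on both strands, there was no sterol regulatory element TCACNCCAC, no nuclear receptor element AGGTCA and no RORE core. These were also rare under SREBP2 promoter summits in general, at 0.974%, 7.88% and 0.121% of 23204 summits. The RORE core ends in letters that the nuclear receptor element shares. Neither of these receptor patterns can match the putative ROREs that the paper mutated in the MVK and HMGCS1 promoters. Whether that form lies under these summits was not tested, so the search does not show that RORE-like letters were absent. GC boxes, GGGCGG, were present in the VLDLR window and at summits of NPC1, NPC2, SCARB1 and LRP8, as at 57.3% of all SREBP2 promoter summits. A CCAAT box lay under the STARD4 summit, as at 9.15% of all. The printed summit windows are rich in G and C, from 69.4% at STARD4, whose window is shortened, to 80.6% at VLDLR. Within 100 bp to either side of the summit, without shortening, STARD4 had 64.7% and VLDLR 80.6%. The mean of such whole stretches under all SREBP2 promoter summits was 71.0%, so STARD4 lay below it. RefSeq promoters of GRCh38.p14 were searched for the same patterns, from 250 bp before to 50 bp after the start. None of these sterol or receptor patterns was found for the 6 genes that matched, STARD4, MYLIP, VLDLR, LRP8, NPC1 and NPC2. CCAAT was found in 2 copies each at STARD4, MYLIP and 1 of the 2 NPC2 entries, and at 34.6% of all 35116 promoters. Letters absent from these windows say nothing of whether a factor was bound.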

How the data were processed

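Chromatin immunoprecipitation sequencing was analysed in 12 HCC70 samples, of which the 6 immunoprecipitated libraries had region lists and the 6 inputs were not used here. The study's methods describe single-end reads, BWA alignment to hg19, removal of duplicate and multiply placed tags, and MACS. The labels name a paired-end library kit, and the submitters' processing notes name Bowtie2, MACS2 2.1.0 and bedtools. The fold enrichment (a ratio of summit pileup to local background, each plus 1), the −log10 p and the −log10 q were deposited by the authors for each region. The capped display score the authors deposited was not used. H3K27ac lists hold part of a longer call set by a rule not given in the sources used here.

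Fold and −log10 p were inverted under the Poisson model to whole fragments at the summit, with a tolerance of 5% of the step. At least 99.9991% of regions in each list came out whole, and 99.96% of 16795 simulated regions were recovered. Genes were from GENCODE 44 lifted to GRCh37. A gene's promoter value is its strongest overlapping pair of regions, the pair with the most fragments in both libraries together. A tie, as for SREBP2 at SCARB1, went to the first pair in the list. Ratios carry the exact conditional 95% interval of 2 Poisson counts, counts exact Poisson intervals and shares exact (Clopper-Pearson) intervals. No p-value was computed, since each group holds 1 library. Alternatives were q limits of 0.01 and 1e-05, other windows, scaling, overlap rules and motif widths. All 7 genes are named by rule, and genes and lists were chosen with earlier results of these data known. Software was Python 3.11.15 with numpy 2.4.6, pandas 2.3.3, scipy 1.17.1 and matplotlib 3.10.9.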

Additional observations from a re-analysis of the deposited data

How the results depend on the processing

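Of 93 recomputed values for the counts, median ratios, shares and motif counts, 83 stayed within the limits set (1.5-fold for a count, the counting interval for a share or ratio) and 10 moved. Some of the 83 could not have moved. Motif counts of 0 cannot rise in a narrower window, and 7 of 7 genes cannot change in a wider promoter window. A fall from 7 to 5 genes counted as within the limit. The number of regions in the 7 loci was the value that depended most on the q limit. With q of at most 1e-05 SREBP2 had 20 regions in the vehicle and 13 in the XY018 library, and RORγ had 11 and 14. With q of at most 0.01 RORγ had 18 with vehicle and 19 with XY018, and in gene bodies alone 20 and 23, so the order of its libraries turned under all 3 settings. In gene bodies alone that of H3K27ac turned too, at 55 and 53. At 1e-05 all RORγ vehicle regions were kept (100%), 85.0% of SREBP2 regions overlapped H3K27ac, and the promoter count of SREBP2 with XY018 was 6, without STARD4. Requiring summits within 100 bp gave kept shares of 33.3% for SREBP2 and 56.3% for H3K27ac, and 27.8% of SREBP2 regions then had H3K27ac. With the summit itself inside the promoter window, 4 to 6 of the 7 genes remained in each list, with STARD4 missing from every list and MYLIP from all but RORγ with XY018. The median SREBP2 ratio was 0.60 to 0.69 over all settings. Single-gene ratios stayed within their intervals apart from RORγ at LRP8, which was 1.75 when the pair with the closest summits was taken and 0.60 at the main start, a setting added after seeing the data. No paired analysis was possible because each group holds 1 library and the labels give no replicate numbers, and for the same reason no replicate could be left out. Depth limits what is seen, since the weakest regions listed hold 3 to 5 fragments.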
